A study of Mus musculus with 21 samples.

Results

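The keratins described here are 10 genes of the epidermis, *Krt5*, *Krt14*, *Krt15*, *Krt1*, *Krt2*, *Krt10*, *Krt6a*, *Krt6b*, *Krt16* and *Krt17*, chosen by name as the keratins of the basal layer, the suprabasal layers and injured skin. They were found on the arrays by their gene name, which matched 13 of 41174 probes and 10 of 27561 gene names. *Krt1*, *Krt2* and *Krt10* had 2 probes each and the other 7 had 1.

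RNA of skin, liver and epididymal fat came from male C57Bl6/J mice that were JNK1 knock-out (KO) or wild type (WT). All groups, WT included, had eaten a high-fat diet between 5 and 44 weeks of age and were 45 weeks old. One-colour Agilent arrays were hybridised with Cy3-labelled RNA, with 4 KO and 3 WT arrays of skin, 3 KO and 3 WT arrays of liver and 4 KO and 4 WT arrays of fat. The labels do not say whether the arrays of a group came from separate mice, so the p-values measure only the spread between these samples.

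Keratins are filament proteins that assemble in pairs of 1 acidic and 1 basic partner, and they brace epithelial cells from desmosome to desmosome. Basal keratinocytes make KRT5 with KRT14, and cells that leave the basal layer switch to KRT1 with KRT10. KRT6A, KRT6B, KRT16 and KRT17 are scarce in resting epidermis between the hair follicles, are present in the follicle and are known as keratins of wounded and inflamed skin. The comparison of KO with WT skin is that of mice without and with JNK1, a stress kinase that phosphorylates JUN, a component of AP-1.

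Levels are given as log2 intensity after subtraction of the array's 75th percentile, so 0 is the intensity of that percentile. A probe was measured where the scanner software called its signal well above background, and levels of different probes were not set against each other. On the 20 arrays used, 38.9% to 57.2% of probes were measured, the fewest on skin KO 1, followed closely by skin WT 1 at 39.5%. The *Mapk8* probe, for the gene of JNK1, was at -4.46, -4.17, -5.18 and -5.24 in KO skin, measured on none of the 4 arrays, against -4.14 (not measured), -2.42 and -2.16 in WT skin. The array labelled skin WT 1 thus lay at the KO level for this gene and is called WT 1 by its label, and the results that rest on it are also given without it. For fat WT 2 the scanner file was not used, because its keratin levels were those of skin and it did not match its own column in the authors' value table.

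The probes decide which transcripts are read. The following are shown because *Krt6a* and *Krt6b* are near-identical genes and *Krt14* and *Krt15* are basal keratins on chromosome 11. *Krt2* and *Krt10* are included because each had a pair of probes. Positions are those of the scanner files in mouse build mm9, on the minus strand where a position is given. Each sequence is 5′ to 3′, and capitals mark its longest run of bases that also occurs in a probe of another gene name.
Krt6a, first 24 bases of the probe at chr15:101520862-101520921: agcaagaAGAGCTACAGGCAGtga
Krt6b, chr15:101509450-101509509: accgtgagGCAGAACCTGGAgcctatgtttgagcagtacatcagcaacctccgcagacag
Krt14, within chr11:100064683-100065288: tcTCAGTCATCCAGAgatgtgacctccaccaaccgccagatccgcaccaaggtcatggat
Krt15, chr11:99993340-99993399: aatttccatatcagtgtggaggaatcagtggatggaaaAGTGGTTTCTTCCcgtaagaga
Krt2, the probe with the lower signal, chr15:101641879-101641938: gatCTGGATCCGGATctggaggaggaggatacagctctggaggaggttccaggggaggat
Krt10, the probe with the higher signal, no position given: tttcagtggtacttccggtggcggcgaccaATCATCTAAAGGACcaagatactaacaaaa
Krt10, the probe with the lower signal, chr11:99247994-99248053: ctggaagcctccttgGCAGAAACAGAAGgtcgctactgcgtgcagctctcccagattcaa

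Across all 13 keratin probes the longest run shared with a probe of another gene was 12 to 14 of 60 bases, and for *Krt6a* and *Krt6b* it was with *Bag6* and others rather than with each other. This compares probes only, and whether a probe also binds the transcript of a related keratin was not analysed here. The exon or untranslated region under each probe was not analysed here either. The 2 probes of *Krt2* lie on the same strand in the same gene and gave the same order of arrays for the highest and the lowest. The second *Krt1* probe is on the plus strand, opposite to the gene's other probe, was measured on no array and was not used.

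In skin, 5 of the 6 keratins of uninjured epidermis differed by less than 0.5 log2 units between the genotype means, and the sixth, *Krt2*, had a KO mean 0.186-fold that of WT. Of the 4 wound keratins, *Krt6a*, *Krt6b* and *Krt16* had KO means 6.33- to 9.64-fold those of WT, with very unequal KO arrays. No keratin passed the test over all genes. Of the 10 keratins 0 had an adjusted p below 0.05 by limma with Benjamini-Hochberg adjustment, against 2 of 13527 genes tested (0.0148%). At an unadjusted p below 0.05 there were 4 of the 10, *Krt6a*, *Krt6b* and *Krt16* on the higher side and *Krt2* on the lower, against 7.89% of all genes (2.85% higher and 5.04% lower). In skin each slide held arrays of 1 genotype, so no comparison within a slide was possible. In bulk tissue, fewer cells of a type and less RNA per cell cannot be told apart.

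*Krt5*, the basic keratin of the basal layer, was at 9.37, 9.26, 8.97 and 9.20 in KO skin against 9.74, 9.16 and 9.28 in WT skin. The arrays of both genotypes lay within less than 1 log2 unit of each other, and the KO minus WT difference was -0.19 (SE 0.214, 95% interval -0.68 to 0.30, limma adjusted p = 0.676). *Krt14*, its acidic partner, was at 9.25, 7.76, 7.50 and 7.70 in KO skin against 8.60, 7.33 and 7.63 in WT skin. The first array of each genotype was the highest, and the groups overlapped. The difference of *Krt14* was 0.20 (SE 0.472, 95% interval -0.88 to 1.28, limma adjusted p = 0.858), and it was -0.20 without KO 1. *Krt15*, a basal keratin also used as a marker of the hair follicle bulge, was at 6.68, 8.12, 7.73 and 8.07 in KO skin against 8.42, 7.89 and 8.04 in WT skin. KO 1, the highest array for *Krt14*, was the lowest for *Krt15*. The difference of *Krt15* was -0.47 (SE 0.362, 95% interval -1.30 to 0.36, limma adjusted p = 0.584).

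*Krt1*, the basic keratin of the suprabasal layers, was at 8.48, 6.68, 6.21 and 6.63 in KO skin against 7.66, 6.51 and 6.51 in WT skin. Its arrays were ordered much as for *Krt14*, with KO 1 and then WT 1 highest. The difference was 0.11 (SE 0.548, 95% interval -1.14 to 1.36, limma adjusted p = 0.935) and -0.39 without KO 1, so the sign of both *Krt14* and *Krt1* rested on that array. *Krt10*, the acidic partner of KRT1, was at 9.27, 9.0, 8.70 and 9.07 in KO skin against 9.28, 9.13 and 9.15 in WT skin. KO 1 lay with the WT arrays and the other 3 KO arrays were below every WT array. All 4 KO arrays were below every WT array for 8.21% of genes, which *Krt10* was not among. The larger share of genes with at least 3 such arrays was not counted. The difference was -0.18 (SE 0.199, 95% interval -0.63 to 0.28, limma adjusted p = 0.679). The lower-signal *Krt10* probe was at 8.41, 7.77, 7.70 and 7.97 in KO skin against 8.92, 7.90 and 7.80 in WT skin, a difference of -0.25.

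*Krt2*, a keratin of the upper suprabasal layers that is abundant in mouse ear, tail and sole skin, was at -4.13, 0.25, -1.35 and -0.24 in KO skin against 1.98, 0.16 and 1.04 in WT skin. The KO 1 value was not well above background, 3 of 4 KO arrays were below every WT array, and KO 2 lay within the WT range. The difference was -2.43 (SE 0.970, 95% interval -4.65 to -0.21, unadjusted p = 0.0352 and adjusted p = 0.555 by limma), which placed *Krt2* at 13525 of 13527 genes counted from the highest difference. A difference below -2 was found for 0.0444% of genes. The lower-signal *Krt2* probe was at -4.19 and -3.63, both not well above background, on KO 1 and KO 3, at -1.62 and -1.84 on KO 2 and KO 4, and at -0.11, -1.86 and -0.88 in WT skin. Its difference was -1.87 (SE 0.689, limma adjusted p = 0.585 with every probe tested on its own). Without the sparsely measured arrays KO 1 and WT 1 the *Krt2* difference was -1.05 (limma adjusted p = 0.645, with 0.168 to 1 over the 19 other settings that tested it). Without KO 1 alone it was -1.51, and without the array labelled WT 1 alone it was -1.97, so the place below -2 rested on either array.

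**Figure D1:**
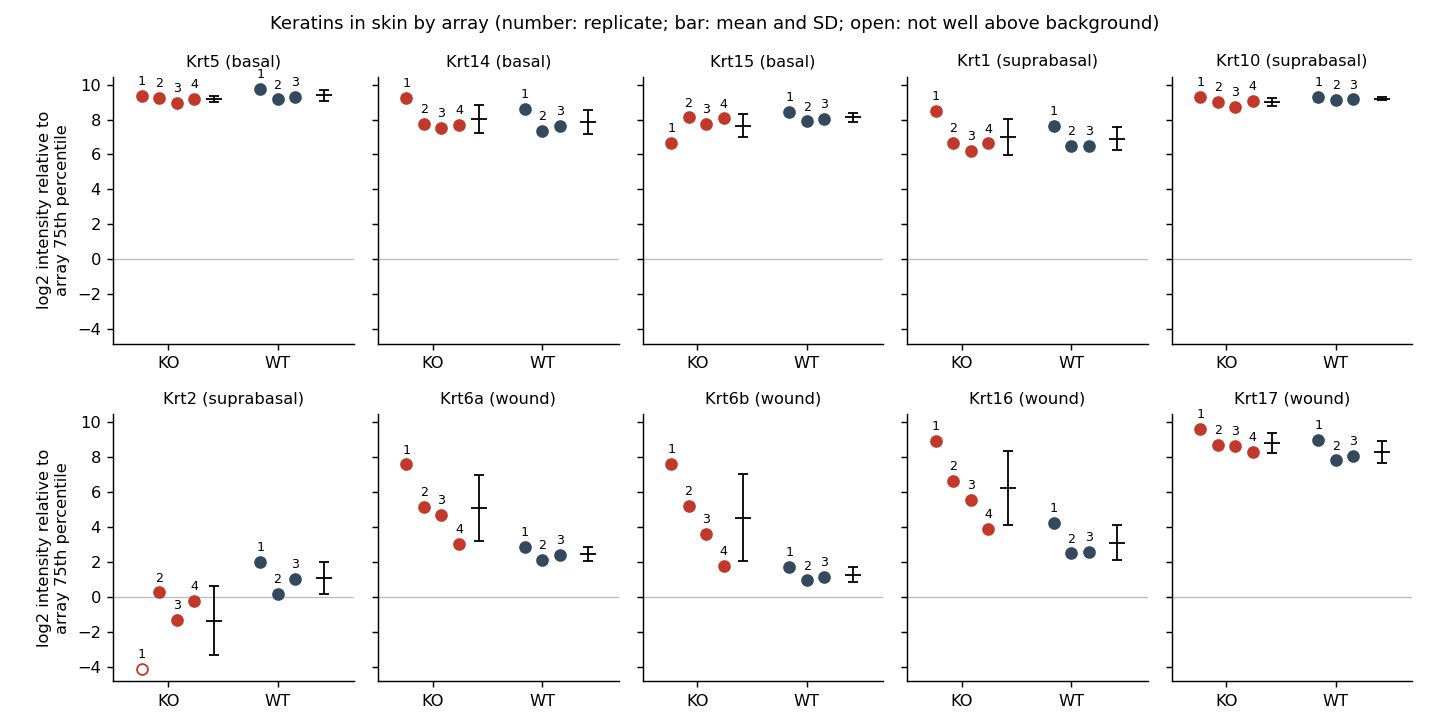
Log2 intensity relative to the array 75th percentile of the 10 keratins in skin, 1 point per array with its replicate number, 4 KO arrays left and 3 WT arrays right, with mean and SD as bars. *Krt6a*, *Krt6b* and *Krt16* spread over several log2 units among KO arrays and lie highest on KO 1, and the open *Krt2* point of KO 1 at -4.13 was not well above background.

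*Krt6a*, a basic wound keratin, was at 7.57, 5.15, 4.67 and 3.0 in KO skin against 2.85, 2.10 and 2.37 in WT skin. All 4 KO arrays were above every WT array, although KO 4 exceeded WT 1 by little. The mean of *Krt6a* was 5.10 ± 1.89 (SD, n = 4) in KO skin and 2.44 ± 0.38 (SD, n = 3) in WT skin. The difference was 2.66 (SE 0.888, unadjusted p = 0.0162 and adjusted p = 0.555 by limma). As a ratio this was 6.33-fold, with a 95% interval of 1.55 to 25.8.

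*Krt6b*, the neighbouring gene with nearly the same protein, was at 7.58, 5.17, 3.60 and 1.77 in KO skin against 1.72, 0.93 and 1.14 in WT skin. The order of the 7 arrays was the same as for *Krt6a*, and KO 4 lay just above WT 1. The mean of *Krt6b* was 4.53 ± 2.46 (SD, n = 4) in KO skin and 1.26 ± 0.41 (SD, n = 3) in WT skin. KO minus WT was 3.27 (SE 1.15, unadjusted p = 0.0203 and adjusted p = 0.555 by limma) or 9.64-fold, with a 95% interval of 1.57 to 59.3.

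*Krt16*, an acidic keratin that pairs with KRT6, was at 8.92, 6.62, 5.53 and 3.85 in KO skin against 4.23, 2.48 and 2.54 in WT skin. Here 3 of 4 KO arrays were above every WT array and KO 4 lay below WT 1. The mean of *Krt16* was 6.23 ± 2.12 (SD, n = 4) in KO skin and 3.08 ± 0.99 (SD, n = 3) in WT skin. KO minus WT came to 3.15 (SE 1.05, unadjusted p = 0.0161 and adjusted p = 0.555 by limma) or 8.86-fold, with a 95% interval of 1.68 to 46.7.

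*Krt17*, an acidic keratin of hair follicles and of injured epidermis, was at 9.58, 8.69, 8.61 and 8.26 in KO skin against 8.98, 7.80 and 8.08 in WT skin. Only KO 1 was above every WT array, and the other KO arrays lay inside the WT range. The difference was 0.50 (SE 0.382, 95% interval -0.37 to 1.38, limma adjusted p = 0.579), or 1.42-fold. Among 13527 genes counted from the highest difference, *Krt6b* was number 93, *Krt16* number 101, *Krt6a* number 124 and *Krt17* number 1474. A difference above 2 was found for 1.14% of genes, and 3.34% had every KO array above every WT array.

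**Figure D2:**
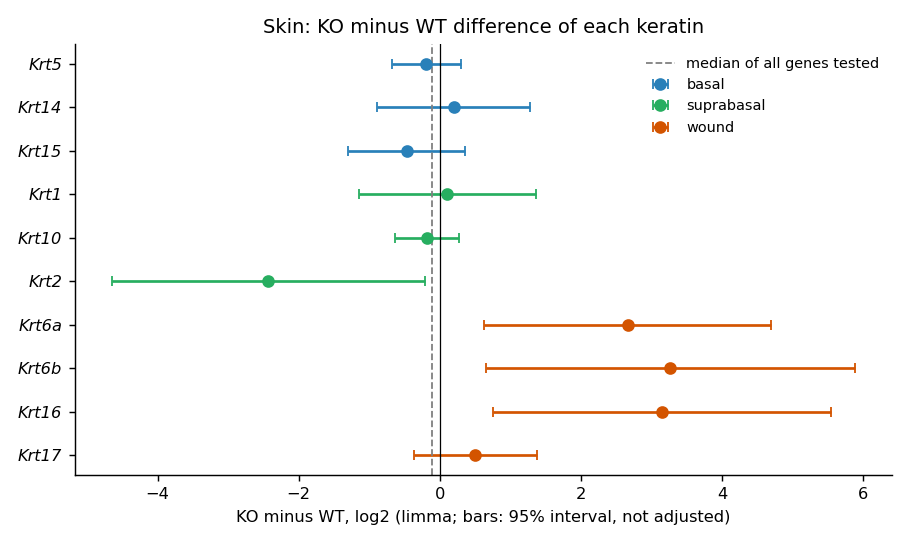
KO minus WT difference in skin of each keratin on the log2 scale with its unadjusted 95% interval by limma (4 KO and 3 WT arrays), basal, suprabasal and wound keratins in turn, with the median of all genes tested (-0.10) as a dashed line. *Krt6a*, *Krt6b* and *Krt16* lie right of 0 at 2.66 to 3.27, *Krt2* lies left of it at -2.43, and the intervals of the other 6 include 0.

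*Krt6a*, *Krt6b* and *Krt16* differed more among KO arrays than nearly all other genes. The SD over the 4 KO arrays was at the 99.7th percentile of all genes tested for *Krt6a*, the 99.9th for *Krt6b*, the 99.8th for *Krt16* and the 99.8th for *Krt2*, against the 20.7th for *Krt5* and the 38.3rd for *Krt10*. The median SD of all genes was 0.287 over KO arrays and 0.339 over WT arrays. Set against the WT mean, *Krt6b* was higher by 6.32, 3.91, 2.34 and 0.51 on KO 1 to KO 4, *Krt16* by 5.84, 3.53, 2.45 and 0.77, and *Krt6a* by 5.14, 2.71, 2.23 and 0.57. All of these 3 genes thus had the highest value on KO 1, and KO 4 was within 0.77 of the WT mean. Without KO 1 the differences were 1.84 for *Krt6a*, 2.25 for *Krt6b* and 2.25 for *Krt16*, with limma adjusted p = 0.558, 0.732 and 0.732. Without KO 4 they were 3.36, 4.19 and 3.94, with limma adjusted p = 0.137, 0.141 and 0.158. Without the array labelled WT 1 they were 2.87, 3.5 and 3.72, each with limma adjusted p = 0.796. All 10 keratins kept the sign of their skin difference without that array, with *Krt14* at 0.57 and *Krt1* at 0.49. Over all 20 other settings tried, the adjusted p was 0.132 to 1 for *Krt6a*, 0.0909 to 1 for *Krt6b* and 0.0988 to 1 for *Krt16*.

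**Figure D3:**
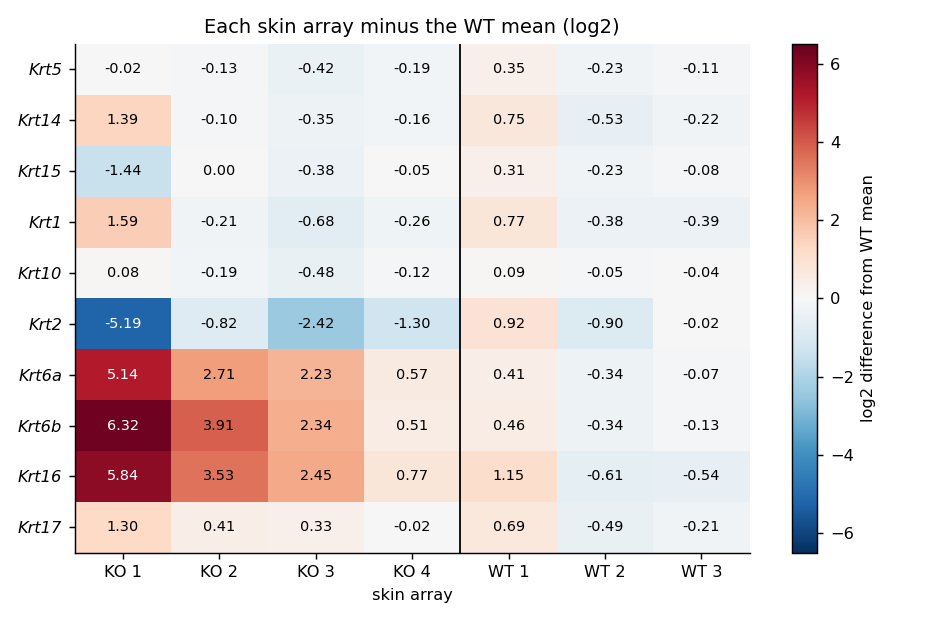
Difference of each of the 7 skin arrays from the WT mean (log2), keratins in rows and arrays in columns, KO arrays left of the line. *Krt6a*, *Krt6b* and *Krt16* are highest on KO 1 (5.14 to 6.32) and near the WT mean on KO 4 (0.51 to 0.77), and *Krt2* is lowest on KO 1 (-5.19).

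As a description over the 7 skin arrays, which share their genotype groups and array scaling, *Krt6a*, *Krt6b* and *Krt16* moved together. Pearson's r was 0.993 between *Krt6a* and *Krt6b*, 0.986 between *Krt6a* and *Krt16* and 0.986 between *Krt6b* and *Krt16*, and without KO 1 it was 0.981, 0.971 and 0.966. *Krt17* correlated with *Krt6a* at 0.838, or 0.597 without KO 1, and with *Krt16* at 0.886, or 0.734. Its correlation with the basal keratin *Krt14* was higher, at 0.904, or 0.766 without KO 1. The values of some other pairs rested on KO 1. *Krt14* and *Krt15* had r = -0.553, but 0.902 without KO 1, and *Krt15* and *Krt1* had -0.569 and 0.936. *Krt5* and *Krt15* had 0.209, but 0.959 without it. *Krt14* and *Krt1*, which belong to different layers, had 0.982 with KO 1 and 0.947 without it.

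The genes most like each of 3 keratins over the 7 skin arrays, of 10909 genes compared by Pearson's r, were as follows. *Krt14* was matched most closely by *Rdh1*, which encodes a retinol dehydrogenase (0.994), *Cyp51*, an enzyme of cholesterol synthesis (0.991), and *Sox7* (0.991). *Krt10* was matched by *Cyb561d2* (0.982), *Chchd2* (0.973) and *Azin1*, an inhibitor of antizyme (0.968). *Krt16* was matched by *Slpi*, a secreted protease inhibitor (0.994), *Sprr1b*, a cornified envelope precursor (0.991), and *Tdh*, threonine dehydrogenase (0.988). The median r over all genes compared was 0.122 for *Krt14*, 0.202 for *Krt10* and -0.0756 for *Krt16*, so that with 7 arrays the highest of so many values is high by selection.

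Other genes that injured keratinocytes are known to switch on stood beside the wound keratins. Of 26 genes of keratinocyte activation on the arrays, 17 were tested in skin, and the others were measured on too few skin arrays. Of the 17 tested, 15 had a positive difference and 0 passed the test, with a median of 2.22. At an unadjusted p below 0.05 by limma 7 of them were higher, against 2.85% of all genes. WT skin measured 14 of the 17 on all 3 arrays, 1 on some and 2 on none, and with those 2 at their bound the median was 1.85. A gene measured only where it was high could pass the filter through KO arrays alone, so these counts are descriptions. Over all genes tested 39.4% had a positive difference and the median was -0.10. *S100a9*, a calcium-binding protein of inflamed skin, differed by 4.13 (SE 1.18, limma adjusted p = 0.520) and *Il1b*, a cytokine measured on 3 KO arrays and no WT array, was at least 4.37-fold higher (limma adjusted p = 0.483). *Sprr2d*, a cornified envelope precursor, differed by 3.97 and *Stfa1*, a stefin protease inhibitor, by 3.46. The summed level of all 26 genes, in multiples of the array 75th percentile, was 2113, 288, 238 and 116 in KO skin against 119, 80.9 and 83.3 in WT skin. KO 1 was again the highest and KO 4 within the WT range, the array order of *Krt6a*, *Krt6b* and *Krt16* in KO skin.

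Markers of the hair shaft and inner root sheath and of some other cell types also differed between the groups, while other follicle markers differed little. For comparison, 39.4% of all genes tested had a positive difference, and the median was -0.10. All 17 genes of the hair shaft and inner root sheath that were tested had a positive difference, with a median of 3.96. At an unadjusted p below 0.05 by limma 16 were higher, against 2.85% of all genes. The lowest adjusted p of the 17 genes was 0.145 by limma. The summed level of all 18 genes of this list on the arrays was 2945, 1203, 2623 and 691 in KO skin against 106, 296 and 102 in WT skin. Every KO array was above every WT array in this sum. *Krt71* and *Krt25*, keratins of the inner root sheath, differed by 3.74 and 4.14, and *Krt85* and *Krt31*, keratins of the hair shaft, by 4.11 and 4.06. WT skin measured 16 of the 17 on all 3 arrays and 1 on none, and the latter entered these counts through KO arrays alone. The melanocyte list was positive in 7 of 7, with a median of 2.21, or 1.52 with the 2 genes that no WT array measured at their bound, and the cell cycle list in 7 of 7, with a median of 0.55. The summed cell cycle level was 40.6, 15.1, 17.8 and 9.67 in KO skin against 13.9, 9.31 and 11.4 in WT skin, highest on KO 1. The muscle list was negative in 10 of 10 (median -0.70), with sums of 1530 to 3781 in KO skin against 3744 to 4588 in WT skin, the endothelial list in 7 of 8 (median -0.69) and the adipocyte list in 7 of 9 (median -0.53). The list of follicle stem cells and outer root sheath was positive in 4 of 9 (median -0.18). Its sums, over all 11 genes on the arrays, were 49.6 to 83.0 in KO skin against 62.6 to 77.9 in WT skin. The sebaceous gland list was positive in 4 of 8 (median -0.04) and the fibroblast list in 3 of 7 (median -0.23). The macrophage list was positive in 2 of 6 (median -0.18) and the hepatocyte list in 5 of 7 (median 0.34). The part of these lists in the keratin values was not tested.

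Genes that hold keratin filaments in place showed smaller differences. The share of positive differences over all genes tested in skin was 39.4%, and the median was -0.10. Of 15 desmosome and plakin genes 9 were positive, with a median of 0.08 and 0 called, and *Dsp*, whose product ties keratins to desmosomes, differed by -0.20. Among the desmosomal cadherins *Dsg3* differed by 0.94, *Dsc1* by 0.73 and *Dsg1a* by 0.48, and *Dsc2*, measured on 3 KO arrays and no WT array, was at least 2.30-fold higher (limma adjusted p = 0.555). *Dsc2* thus passed the filter through KO arrays alone, and its value and its place in the count are descriptions. Of 11 genes of the hemidesmosome and laminin-332, which anchor basal cells to the basement membrane, 9 were negative, with a median of -0.24 and 0 called. *Plec*, which encodes the plakin that links keratins to hemidesmosomes, differed by -0.93, *Col17a1* by -0.88, *Lamb3* by -0.70 and *Cd151* by -0.47. Their summed level was 92.8 to 134 in KO skin against 135 to 209 in WT skin. The cornified envelope list was positive in 9 of 15, with a median of 0.59 and 0 called. Its sums were 1396 to 2546 in KO skin against 1743 to 2494 in WT skin. Within this list *Lor*, the main envelope protein of the granular layer, differed by -0.29, *Flg2* by -0.65, *Ivl* by 1.04 and *Rptn* by 2.37. *Tgm3*, which encodes a transglutaminase, differed by 2.07 and was measured on 1 of 3 WT arrays.

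Of 25 regulators of keratin genes tested in skin, 10 had a positive difference, against 39.4% of all genes. Their median was -0.09 and 0 were called. *Trp63*, which encodes the transcription factor p63 that keeps *Krt5* and *Krt14* on, differed by 0.03 (limma adjusted p = 0.959). Of 6 AP-1 subunit genes tested 4 were negative and 2 positive, between -0.82 (*Fosb*) and 0.54 (*Fosl2*). The nuclear receptor genes *Vdr* and *Thra* differed by 0.82 and -0.65. *Lef1*, a Wnt effector of the hair matrix, differed by 2.57 (SE 0.632, limma adjusted p = 0.322) and was measured on 4 KO arrays and 1 WT array. Of 10 other epithelial keratins tested, 6 were positive with a median of 0.04, with *Krt13*, a keratin of internal stratified epithelia, at 0.81 and *Krt18* at 0.49, beside *Krt20* at -0.61 and *Krt78* at -0.35.

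The skin samples had the keratin pattern of their label, and the other tissues did not. In WT animals all 10 keratins were called higher in skin than in liver and than in fat. For *Krt5*, *Krt14*, *Krt15*, *Krt10* and *Krt17*, measured on at least 1 WT liver array, limma adjusted p was at most 2.93e-07. For *Krt5*, *Krt14*, *Krt10* and *Krt17*, measured on at least 1 WT fat array used, it was at most 8.58e-07. Of the WT liver arrays, only WT 3 measured *Krt5*, *Krt14* and *Krt15*. *Krt14* also entered the liver test through skin alone. The other keratins were measured on no array of the WT group in question and entered the test through skin alone. Their calls set skin against signals near background, so bounds are given. Of all genes tested, 64.3% were called between skin and liver (29.7% higher in skin), and 57.4% between skin and fat (26.5% higher in skin). The difference of *Krt1* was at least 1279.5-fold against liver and at least 1977-fold against fat, where its probe was measured on no array of either WT group. Such bounds set the skin mean against the lowest signal among probes well above background. For the wound keratins the bounds were lower, at least 58.3-fold for *Krt6a*, 25.8-fold for *Krt6b* and 91.3-fold for *Krt16* against liver, and at least 90.0-fold, 39.9-fold and 141-fold against fat. *Krt2*, with a WT skin mean of 1.06, was at least 22.5-fold and 34.7-fold higher. *Krt15* was at least 4624-fold higher in skin than in fat.

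**Figure D4:**
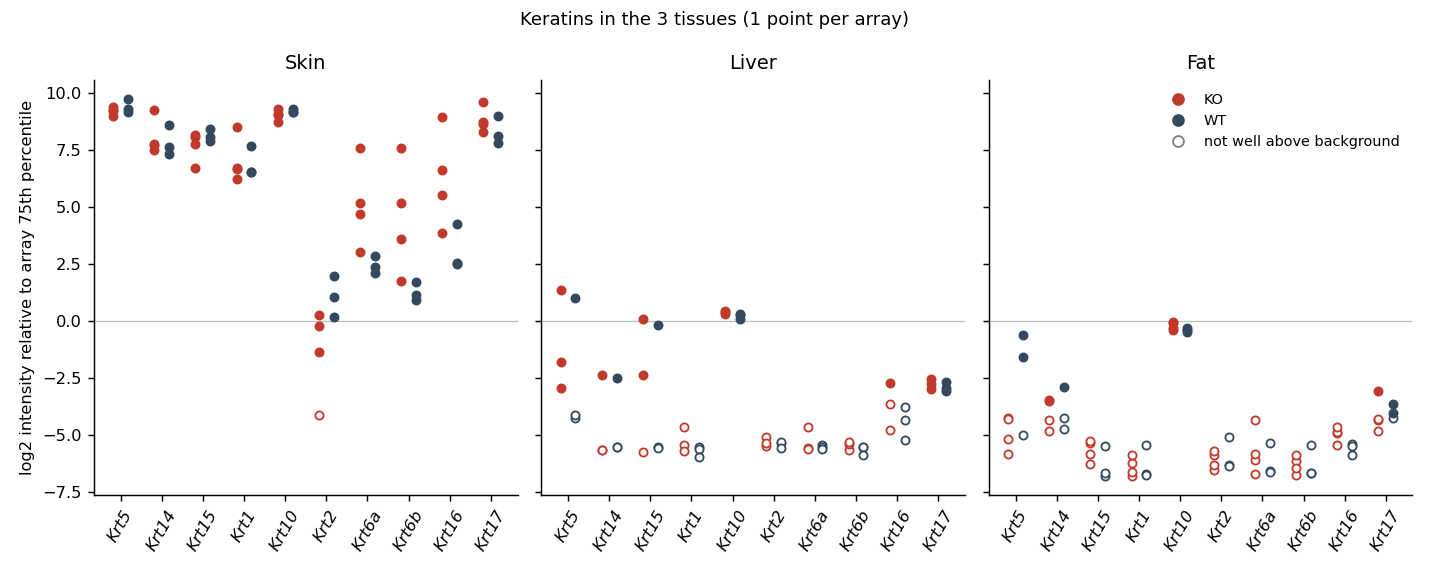
Log2 intensity relative to the array 75th percentile of the 10 keratins in skin, liver and fat, 1 point per array, KO left and WT right for each gene, with open points not well above background. All 10 keratins are higher in skin, the *Krt10* probe lies near 0 in liver and fat, and a few liver and fat arrays carry *Krt5*, *Krt14* or *Krt15*.

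In liver, *Krt5* was at -1.80, 1.37 and -2.94 in KO samples against -4.27, -4.13 and 0.98 in WT samples, the first 2 of them not well above background. KO 2 and WT 3 stood well above the other arrays of their groups. *Krt15* was at -2.36, 0.10 and -5.72 in KO liver against -5.52, -5.58 and -0.20 in WT liver, measured on the same arrays except KO 3. *Krt14* was measured on KO 2 (-2.38) and WT 3 (-2.51) and on no other liver array, and *Krt16* on KO 2 alone (-2.70). *Krt1*, *Krt2*, *Krt6a* and *Krt6b* were measured on no liver array. *Krt17* was at -2.98, -2.56 and -2.77 in KO liver against -3.08, -2.66 and -2.93 in WT liver, with no array apart. By limma the KO minus WT difference was 1.35 for *Krt5* (SE 1.64), 1.10 for *Krt15* (SE 1.87) and 0.12 for *Krt17* (SE 0.184), none called, where 0.0225% of genes were. Leaving out single arrays moved *Krt5* over 0.10 (without KO 2) to 3.08 (without WT 3) and *Krt15* over 0.19 (without WT 2) to 2.63 (without KO 3). Without KO 1, KO 2 or WT 3, the only liver arrays that measured it, *Krt15* was not tested, so its range does not cover them.

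Liver KO 1, KO 2 and WT 3, where both *Krt5* and *Krt15* were measured, also carried other genes of stratified epithelia and the highest muscle sums, while on KO 3, with *Krt5* alone of the basal keratins, neither *Krt13* nor *Krt4* was measured. *Krt13* was at -1.20, 2.01 and -3.45 in KO liver against -5.37, -5.16 and 0.89 in WT liver. *Krt4*, the partner of KRT13 in internal stratified epithelia such as oesophagus and forestomach, was at -0.79, -0.38 and -3.98 in KO liver against -5.29, -5.25 and 1.36 in WT liver, whereas it was measured on no skin array. *Krt4* thus stood high beside *Krt5* on arrays where *Krt1* was not measured. The summed cornified envelope level was 14.1, 56.8 and 2.67 in KO liver against 1.91, 2.21 and 43.1 in WT liver, and the summed muscle level was 31.8, 13.1 and 1.17 against 7.87, 1.19 and 27.3. Their part in the liver keratin values was not tested.

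*Krt10* was an exception, with liver levels of 0.38, 0.29 and 0.42 in KO samples against 0.26, 0.29 and 0.09 in WT samples, on all 6 arrays well above background. Its levels did not follow *Krt5*. In fat it was at -0.08, -0.38, -0.33 and -0.06 in KO samples against -0.30, -0.49 and -0.41 in WT samples. The lower-signal *Krt10* probe was measured on no liver array and on none of these fat arrays, at -6.30 to -3.65, so the 2 probes of this gene went against each other outside skin.

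In fat, *Krt5* was at -5.16, -4.23, -4.30 and -5.83 in KO samples, measured on KO 2 alone, against -0.62, -1.57 and -4.99 in WT 1, WT 3 and WT 4, measured on the first 2. WT 1 and WT 3 stood above the rest. The difference was -2.49 (SE 0.996, unadjusted p = 0.0395 and adjusted p = 0.606 by limma), where 0.0131% of genes were called. It was -3.79 without WT 4, -2.18 without KO 4, and between -5.48 and -0.63 over all settings that tested it. Without KO 2, WT 1 or WT 3, the arrays that measured *Krt5*, too few remained and it was not tested. In the authors' value table, whose log2 scale differs, *Krt5* was at 4.39, 4.82, 4.77 and 3.61 in KO fat against 7.96, 4.69, 7.10 and 4.60 in WT fat, so WT 2 and WT 4 were within the KO range. On the same arrays the summed level of 8 epididymis and testis genes was 10.9, 11.6, 1.16 and 0.216 in KO fat against 47.4, 39.0 and 0.970 in WT 1, WT 3 and WT 4. Their part in the *Krt5* difference was not tested. *Krt14* differed by -0.07, *Krt17* by -0.15 and *Krt10* by 0.19 in fat, and the other 6 were measured on no fat array.

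**Figure D5:**
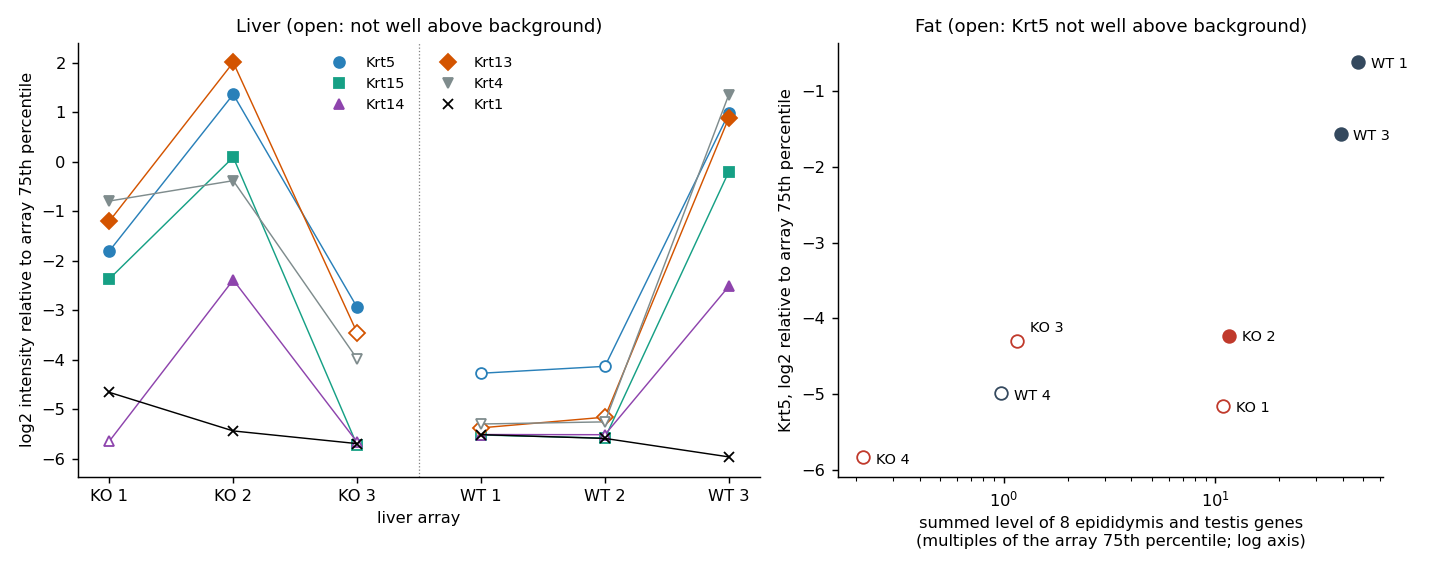
Left, log2 intensity relative to the array 75th percentile of 5 keratins of stratified epithelia and *Krt1* on the 6 liver arrays, KO left and WT right of the dotted line, open points not well above background and *Krt1* measured on none. Right, *Krt5* on the same scale against the summed level of 8 epididymis and testis genes (log axis) on 7 fat arrays. *Krt5* is high on liver KO 2 (1.37) and WT 3 (0.98) and on fat WT 1 (-0.62) and WT 3 (-1.57).

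The difference between tissues in the KO effect was tested for each keratin in 1 fit over 20 arrays. None of the 10 keratins was called for skin minus liver, where 0.202% of genes were, nor for skin minus fat, where 0.433% were. *Krt6b* differed most, by 3.1 between skin and liver (limma adjusted p = 0.542) and by 3.33 between skin and fat (limma adjusted p = 0.325). The corresponding values were 2.42 and 2.22 for *Krt6a*, 2.41 and 2.53 for *Krt16* and -2.53 and -2.24 for *Krt2*. *Krt2*, *Krt6a* and *Krt6b* were measured on no liver or fat array and *Krt16* on liver KO 2 alone, so their liver and fat values were signals near background. These 2 comparisons share the skin arrays.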

How the data were processed

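Per the labels' protocols, cyanine-3 cRNA was made from 0.2 ug of RNA, and per the file headers the scans were read with Agilent Feature Extraction 10.7.3.1, which gave a background-corrected intensity for each spot of the deposited files. The authors' deposited value table holds log2 values of the same arrays, made with limma per the submitters' processing notes, with centring unstated. It was used for fat WT 2 and as an alternative.

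Control spots were left out, as were outlier spots unless every spot of the probe was flagged, and spots of a probe were averaged. Levels are log2 intensity minus the 75th percentile of the array, with 1 probe per gene name (the highest mean). Genes measured on at least 3 arrays of a tissue were tested with limma 3.58.1 in R 4.3.3, KO minus WT, with Benjamini-Hochberg adjustment over all genes and a call at 0.05. Tissue contrasts and differences between tissues came from 1 fit of 6 group means over 20 arrays. The number of arrays limits the precision.

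The 10 keratins and the context lists were chosen with earlier results of these data known. The text names all keratins, *Mapk8*, the 4 members of a list with the smallest p plus up to 2 that define it (*Trp63*, *Fosl2*, *Dsp*, *Lor*), and the 3 genes most like *Krt14*, *Krt10* and *Krt16*. *Krt4* in liver was chosen after its values were seen. Apart from the hair shaft and inner root sheath list, the cell type lists are given without single genes. The series describes quadruplicates, of which the arrays analysed are those counted above. Replicate numbers were not used to pair the samples. In skin the deviations of same-numbered KO and WT arrays correlated at -0.066, -0.113 and -0.042. In fat number 1 they correlated at 0.187, the best match for both arrays, and no other number in any tissue was a best match. Whether same-numbered arrays of different tissues came from 1 mouse was not tested. Alternatives covered background correction, scaling, filters, probe choice, slide and replicate blocks and each array left out.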

Additional observations from a re-analysis of the deposited data

Results flagged for a closer look

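*Krt14* on skin KO 1 stood at 9.25, far from the other 3 KO arrays, at 7.50 to 7.76. By Dixon's ratio of the gap to the range this was 0.856, beyond the 95% critical value for 4 samples. It was 1 of 20 groups of 4 arrays tested, and chance alone marks about 1 group in 20.

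The scanner file labelled fat WT 2, which entered no comparison, carried all 10 keratins. *Krt5* was at 9.58, *Krt14* at 8.27, *Krt15* at 7.61, *Krt1* at 5.98, *Krt2* at 0.46, *Krt10* at 8.65, *Krt6a* at 4.42, *Krt6b* at 2.60, *Krt16* at 4.30 and *Krt17* at 9.65. The other fat arrays had *Krt5* between -5.83 and -0.62 and did not measure *Krt1*. Over all probes the file correlated at 0.863 to 0.914 with skin arrays and at 0.725 to 0.766 with fat arrays. With its own column in the authors' value table it correlated at 0.779, against 0.972 to 0.992 for the other 20 arrays, and 25.2% of its probes were well above background.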

How the results depend on the processing

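The count of keratins called stayed at 0 in skin under 20 alternatives, at 10 in both tissue contrasts under 12 each, and at 0 for skin minus liver under 19. For skin minus fat it was 0 under 19 and 1 without skin KO 4 (0 to 1 over arrays left out), where *Krt6b* was at 4.25 (limma adjusted p = 0.0323, with 0.0323 to 0.635 over its alternatives). In skin, *Krt6a* ranged over 1.84 to 3.36, *Krt6b* over 2.25 to 4.19, *Krt16* over 2.25 to 3.94, *Krt17* over 0.24 to 0.85 and *Krt2* over -2.97 to -1.05. With slide as a random block (correlation 0.0927) the adjusted p of the first 3 was 0.600. With the replicate number as a block, which the pairing check did not bear out except for fat number 1, 0 genes were called in skin, liver and fat. The genes called in skin (2) became 0 with quantile normalization, with the percentile over measured probes, with no filter, with the filter on every array, with slide as a fixed block (in a fit over the arrays of all 3 tissues, where skin KO and WT are set against each other only through liver and fat arrays on their slides) and without KO 1 and WT 1 together; 1 with the value table or the random block; 131 in 1 fit over all arrays; 4 with every probe on its own, added after seeing the data; and 0 to 42 without single arrays. In liver (3) they became 11 with normexp, 5 with the value table, 1 with no filter, 6 with the filter on every array, 20 in 1 fit and 0 to 28 without single arrays. In fat (2) they became 1 with the percentile over measured probes, the value table, no filter, the filter on every array or the fixed slide block, 56 in 1 fit, 0 with the fat WT 2 scanner file and 1 to 12 without single arrays. Signs that turned were those of small differences. In skin, *Krt1* was at -0.047 with normexp, -0.14 with the fixed slide block, -0.0020 without KO 1 and WT 1, and -0.39 to 0.49 without single arrays; *Krt14* was at -0.20 to 0.57 without single arrays; *Krt10* was at 0.0165 with the value table; *Krt5* was at 2.51 with the fixed slide block; and *Krt15* was at 2.18 with that block and 0.0089 without KO 1 and WT 1. *Krt17* in liver was at -0.085 with the value table and -0.21 with the fixed slide block. In fat, *Krt14* was at 0.091 with normexp, 0.10 with the value table, 0.70 with the fixed slide block and -0.45 to 0.19 without single arrays. For *Krt14* and *Krt17* in fat, these single arrays are only those that did not measure the gene. Without an array that did, too few remained and the gene was not tested. *Krt17* in fat was at 0.085 with the replicate block and -0.28 to 0.085 without single arrays, and *Krt10* in fat at -2.07 with the fat WT 2 scanner file. The cause of these changes was not tested. The percentile over measured probes shifted the skin median of all genes by 0.14. The random block could not be fitted in liver. Signals near background limit *Krt2* in skin and nearly all keratins in liver and fat.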
